A study of Arabidopsis thaliana with 7 samples.

Results

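The 10 jasmonate genes described here were followed in roots of Arabidopsis thaliana grown with or without phosphate. They were taken by locus identifier, for their roles in the pathway, from tables that hold 27416 genes. Earlier results of these data were known at that point. The synthesis enzymes are LOX2 (AT3G45140), AOS (AT5G42650), AOC1 (AT3G25760), AOC2 (AT3G25770) and OPR3 (AT2G06050). The repressors are JAZ1 (AT1G19180) and JAZ10 (AT5G13220), the transcription factor is MYC2 (AT1G32640), and the output genes are VSP1 (AT5G24780) and VSP2 (AT5G24770). All 10 had a row in both count tables.

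Jasmonates are plant hormones made from a fatty acid of the chloroplast membrane. A lipoxygenase (LOX), allene oxide synthase (AOS) and allene oxide cyclase (AOC) act in the plastid, and the reductase OPR3 acts in the peroxisome. JAZ proteins hold back MYC2 and its relatives until the active hormone, jasmonoyl-isoleucine, joins them to the receptor COI1 and they are degraded, after which MYC2 turns on genes such as the VSPs, which encode vegetative storage proteins of shoots. JAZ genes are themselves turned on by MYC2, which closes a feedback loop.

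Whole roots were harvested from seedlings of 14 d that had spent their last 7 d with phosphate at 500 µM, the control, or at 0 µM, called low phosphate. Ribosome footprints, the RNA fragments of 26 to 32 nt shielded by ribosomes, and poly(A) RNA came from plants in the Columbia background that carry an epitope-tagged ribosomal protein under the 35S promoter. The protocols call the construct 35S:His6FLAG-RPL18B, line 12-2-4, while the sample label reads 35S:HF-FLAG-RPL8, and both conditions carry it. Double-stranded RNA (dsRNA), which is what a nuclease specific for single strands leaves of rRNA-depleted total RNA, came from plants labelled Col-0. The low phosphate poly(A) and dsRNA entries repeat the control treatment text, so their condition follows their titles. There were 2 bioreplicates per condition in each of the 3 assays. P-values in the coding assays measure the spread between bioreplicates. That spread was estimated over footprint and poly(A) libraries together and drawn towards that of other genes. The dsRNA fit found too little difference in spread between genes and used 1 spread pooled over all genes, so its p-values do not rest on the replicates of a single gene. Small RNA is a single table of loci whose columns name no sample. The only small RNA sample listed is of control roots, and whether the table rests on it alone is not stated.

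Counts summed to 7156329 to 12817826 per footprint library, 18262547 to 26746252 per poly(A) library and 2735264 to 8249514 per dsRNA library. Levels are CPM, counts scaled to the library total, and since no coding length was used, levels are not compared between genes. The 4 phosphate starvation genes chosen as a check (PS2, SPX3, MGDC and PHT1;4) all rose in all 3 assays, with median log2 changes of 4.93 in poly(A) RNA, 4.57 in footprints and 6.37 in dsRNA. None of 8 root marker genes was at 0 in any of the 12 libraries, and their summed CPM of 6119 to 10026 was mostly that of PYK10, which was not called. EXP7, of root hairs, rose in poly(A) RNA (log2 change 0.98), footprints (1.07) and dsRNA (1.49), COBL9, also of root hairs, in footprints (1.09) and dsRNA (1.77), and CASP1, of the endodermis, in dsRNA (0.90), all by edgeR. SCR, also of the endodermis, RSL4, also of root hairs, and SHR and PHO1, of the stele, were not called in any of the 3 assays. In each dsRNA library 1 gene, AT2G01021, held 12.0% to 18.1% of the counts. Fewer cells of a type and less RNA per cell cannot be told apart in such whole-root samples.

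No jasmonate gene passed the test in poly(A) RNA or in footprints, whereas 3 did in dsRNA. In poly(A) RNA, 0 of the 9 tested genes passed an adjusted p of 0.05 with edgeR, where 1.18% of all 19866 tested genes did. In footprints 0 of 9 passed, beside 1.19% of all genes. At an unadjusted p under 0.05 there was 1 gene (AOC1) in poly(A) RNA and 0 in footprints, and DESeq2 called 0 in both. The unadjusted shares of all genes were 8.91% and 11.5%. AOC2 was too low to be tested in either. In dsRNA 7 genes could be tested, and edgeR called AOC1 higher and VSP1 and VSP2 lower. That is 3 of 7, beside 15.7% of all 17570 genes. AOC1 passed the low-count filter only through its low phosphate libraries, so its place among the 7 depended on its being high there. The backgrounds by direction were 10.2% higher and 5.57% lower. DESeq2, which fits a spread for each gene but draws it towards a trend over all genes, called the same 3. Its p-values thus do not rest on the replicates of a single gene alone either. Of the 8 root markers, CASP1, EXP7 and COBL9 rose in the same dsRNA libraries. The others were not called by edgeR there, with log2 changes of -0.39 for SCR, 0.00 for SHR, -0.03 for PHO1, -0.07 for PYK10 and 0.62 for RSL4. The part of these markers in the changes was not tested. LOX2, AOC2 and JAZ10 were too low in dsRNA to be tested.

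**Figure D1:**
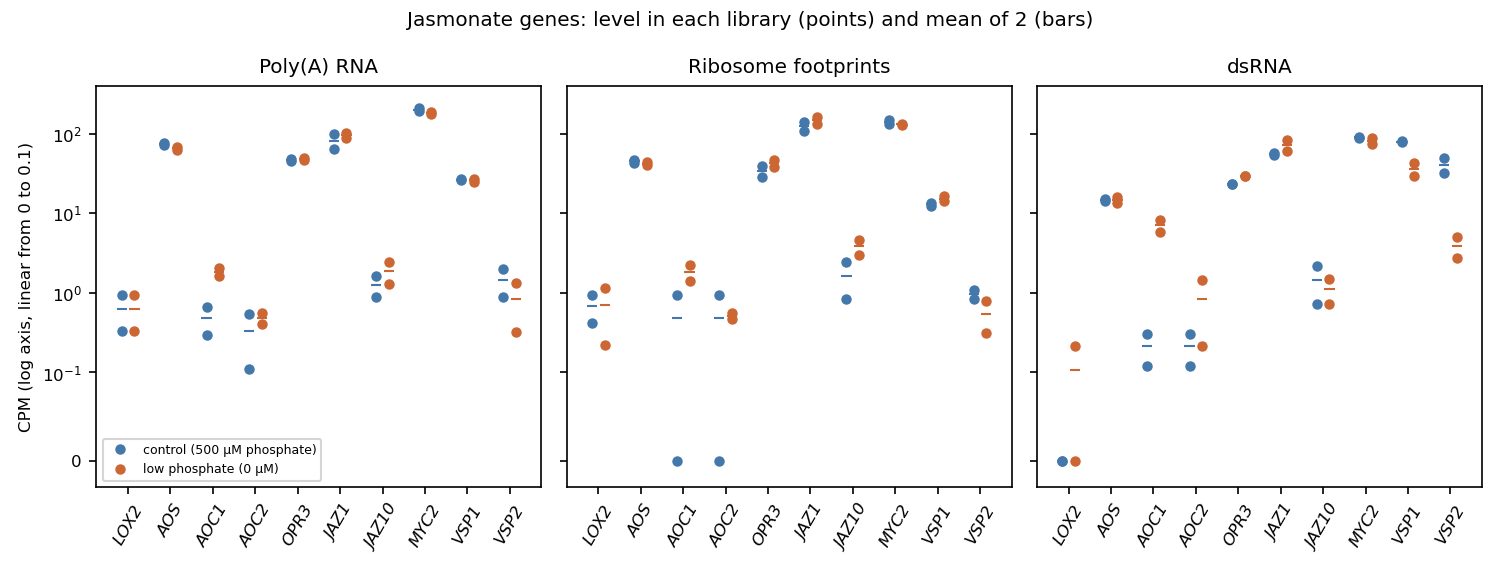
CPM of the 10 jasmonate genes (x axis) in poly(A) RNA, ribosome footprints and dsRNA, on a log axis that is linear from 0 to 0.1. Points are the 2 libraries of each condition and short bars their mean. The conditions lie close together for most genes, while VSP1, VSP2 and AOC1 separate in dsRNA.

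LOX2, a plastid 13-lipoxygenase that is abundant in leaves, was near the lower limit of these root libraries. Its poly(A) counts were 9 and 17 in control and 20 and 9 in low phosphate, or 0.336, 0.931, 0.934 and 0.337 CPM. Footprint counts were 3 and 7 in control and 15 and 2 in low phosphate. Its dsRNA was 1 read in 1 low phosphate library. The conditions overlapped in both coding assays, and the log2 change was 0.03 ± 0.84 (SE, n = 2 per condition) in poly(A) RNA and 0.10 ± 1.00 in footprints.

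LOX2 differed between libraries of a condition. It was high in the second control and first low phosphate libraries, in poly(A) RNA and in footprints alike. The summed CPM of 23 green tissue genes (photosystem, light-harvesting and carbon-fixation proteins) was high in the same libraries. That sum was 621 and 1542 in the poly(A) controls and 1425 and 923 in low phosphate, and 628 and 1266, then 1074 and 691, in footprints, with none of the 23 genes at 0. In poly(A) RNA 0 and in footprints 0 of these 23 genes were called between the conditions by edgeR. The part of green tissue in LOX2 was not tested.

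**Figure D2:**
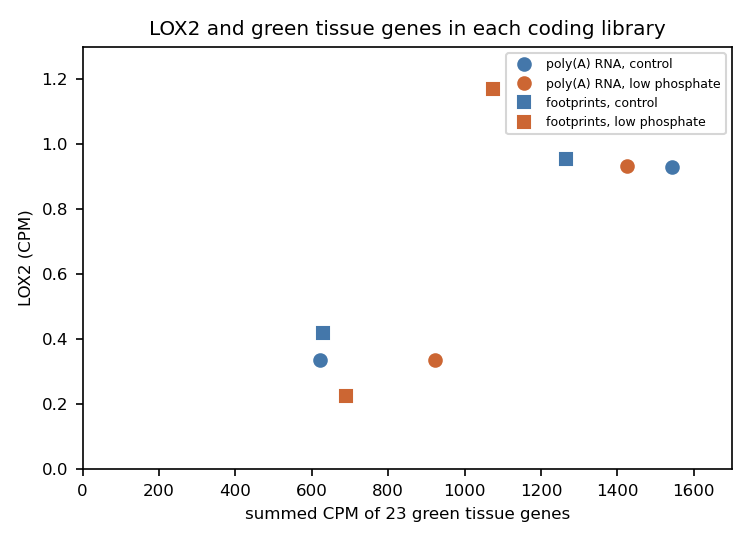
LOX2 level (y axis, CPM) against the summed CPM of 23 green tissue genes (x axis) in each of the 8 coding libraries, with circles for poly(A) RNA and squares for footprints. The 4 libraries with LOX2 above 0.9 CPM have sums from 1074 to 1542, and the 4 below 0.42 CPM have sums from 621 to 923.

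AOS, the cytochrome P450 that commits the pathway to jasmonate, gave many reads in each assay. Poly(A) RNA stood at 72.4 and 76.8 CPM in control and 63.4 and 68.0 CPM in low phosphate. Both low phosphate libraries lay below both controls, but the log2 change of -0.17 ± 0.14 was not called (95% interval -0.48 to 0.13). Footprints of 43.6 and 46.8 CPM in control and 40.1 and 44.7 CPM in low phosphate overlapped, with a log2 change of -0.09 ± 0.14. The dsRNA was 15.0 and 14.5 CPM in control and 13.5 and 16.1 CPM in low phosphate, a log2 change of 0.17 ± 0.30.

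AOC1 and AOC2 encode allene oxide cyclases and lie in tandem on chromosome 3, where the annotated ends leave a gap of 1622 bases between them (TAIR10). They are near-identical copies, and no source used here says how reads shared by such copies were assigned. AOC1 dsRNA rose with low phosphate, from 1 read in each control library to 39 and 16. In CPM this was 0.121 and 0.308 against 8.33 and 5.85. The pooled rate was 42.6 times the control rate, with an exact 95% interval of 11.2 to 361 for counting error alone. The edgeR log2 change was 5.36 ± 0.73 (adjusted p = 9.24e-12), a value that leans on the added prior count because the controls hold 2 reads in all.

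AOC1 stood in the same order in the coding assays without passing the test. Poly(A) counts were 8 and 12 in control and 44 and 44 in low phosphate, or 0.299, 0.657, 2.05 and 1.65 CPM. The log2 change was 1.99 ± 0.77 with a 95% interval of 0.27 to 3.71 (edgeR adjusted p = 0.446). Footprint counts were 0 and 7 in control and 18 and 20 in low phosphate, with a log2 change of 1.89 ± 0.94 (edgeR adjusted p = 0.485). In all 3 assays both low phosphate libraries lay above both controls, a separation whose share over all genes was not counted.

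AOC2 reached 12 poly(A) reads at most. Its poly(A) counts were 3 and 10 in control and 12 and 11 in low phosphate, its footprints 0 and 7 against 6 and 5, and its dsRNA 1 and 1 against 1 and 4. AOC2 did not pass the low-count filter and was not tested, and at this depth only a large difference could have been seen. The pooled poly(A) rate ratio of low phosphate to control was 1.65, with an exact 95% counting interval of 0.804 to 3.56.

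OPR3, which reduces the cyclic intermediate OPDA on the way to jasmonic acid, was not called in any assay. In poly(A) RNA it was 45.8 and 49.0 CPM in control and 47.5 and 50.4 CPM in low phosphate, and the log2 change was 0.06 ± 0.18 (95% interval -0.35 to 0.46). Footprints were 28.9 and 39.6 CPM in control and 38.2 and 46.9 CPM in low phosphate, with overlap and a log2 change of 0.32 ± 0.19. The dsRNA was 23.2 and 23.4 CPM in control and 29.9 and 29.6 CPM in low phosphate. Those groups did not overlap, but the log2 change of 0.54 ± 0.26 was not called (edgeR adjusted p = 0.152).

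JAZ1, one of the repressors that jasmonate removes, was not called in any assay. Poly(A) RNA was 64.3 and 98.3 CPM in control and 89.5 and 102 CPM in low phosphate, a log2 change of 0.25 ± 0.22. Footprints were 108 and 143 CPM in control and 133 and 163 CPM in low phosphate, a log2 change of 0.24 ± 0.22. The conditions overlapped in both coding assays. The dsRNA was 57.7 and 54.8 CPM in control and 83.5 and 61.4 CPM in low phosphate, with no overlap and a log2 change of 0.56 ± 0.23 that was not called (edgeR adjusted p = 0.0729). With 1 dsRNA library left out, the log2 change lay between 0.27 and 0.79 for JAZ1 and between 0.49 and 0.59 for OPR3. Both upper values came without the second low phosphate library.

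JAZ10, a repressor with splice forms that resist removal, was low throughout. Poly(A) counts were 24 and 30 in control and 28 and 65 in low phosphate, or 0.897, 1.64, 1.31 and 2.43 CPM. The log2 change was 0.61 ± 0.56. Footprints were 0.838 and 2.46 CPM in control and 3.04 and 4.70 CPM in low phosphate. Both low phosphate libraries lay above the controls, but the log2 change of 1.22 ± 0.61 was not called (edgeR adjusted p = 0.488). The dsRNA held 6 and 7 reads in control and 7 and 2 in low phosphate.

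MYC2, the basic helix-loop-helix factor at the head of the response, had the narrowest intervals of the 10 genes in poly(A) RNA. Its poly(A) level was 193 and 211 CPM in control and 179.6 and 187 CPM in low phosphate. The 2 conditions did not overlap, yet the log2 change was only -0.13 ± 0.13 (95% interval -0.42 to 0.16). Footprints were 132 and 147 CPM in control and 134 and 129 CPM in low phosphate, a log2 change of -0.08 ± 0.13 (95% interval -0.37 to 0.21). In dsRNA it was 91.0 and 89.6 CPM against 89.5 and 75.7 CPM, both low phosphate libraries below both controls, while the scaled fit gave a log2 change of 0.06 ± 0.22.

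VSP1 and VSP2 encode acid phosphatase-like storage proteins and are neighbours on chromosome 5, with 5365 bases between their annotated ends. They too are close copies that may share reads. VSP2 dsRNA fell with low phosphate, from 264 and 160 reads to 13 and 14. In CPM it went from 32.0 and 49.3 to 2.78 and 5.12, so that the higher low phosphate library was far below the lower control. The edgeR log2 change was -3.24 ± 0.34 (adjusted p = 1.55e-19), a 9.44-fold fall. VSP1 dsRNA fell as well, from 78.8 and 81.0 CPM to 29.7 and 43.1 CPM. Its log2 change was -0.98 ± 0.23 (edgeR adjusted p = 0.000482). The VSP1 call was lost without the first control library (edgeR adjusted p = 0.174) or without the second (edgeR adjusted p = 0.231), whereas VSP2 and AOC1 were called without any 1 of the 4 libraries.

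Neither gene of the pair was called in poly(A) RNA or footprints. VSP1 stood at 26.3 and 26.9 CPM in control and 24.8 and 27.5 CPM in low phosphate, a log2 change of -0.01 ± 0.15 (95% interval -0.36 to 0.33). VSP2 had 24 and 37 poly(A) reads in control and 7 and 36 in low phosphate, a log2 change of -0.72 ± 0.73. Footprints of VSP1 were 13.6 and 12.6 CPM in control and 16.4 and 14.3 CPM in low phosphate, without overlap and with a log2 change of 0.24 ± 0.17. VSP2 had 6 and 8 footprints in control and 4 and 7 in low phosphate, a log2 change of -0.87 ± 0.96.

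Green tissue genes were lower in sum in the same dsRNA libraries. Their summed CPM was 288 and 286 in control and 163 and 168 in low phosphate, with 1 of 23 at 0 in each low phosphate library. Of 17 tested, edgeR called 3 lower (LHCA1, LHCA3 and PSBO1) and 1 higher (PRK), 1 change was positive, and the median log2 change was -0.60 beside -0.02 for all genes. Their lowest log2 change was -1.29, and their part in the VSP falls was not tested.

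**Figure D3:**
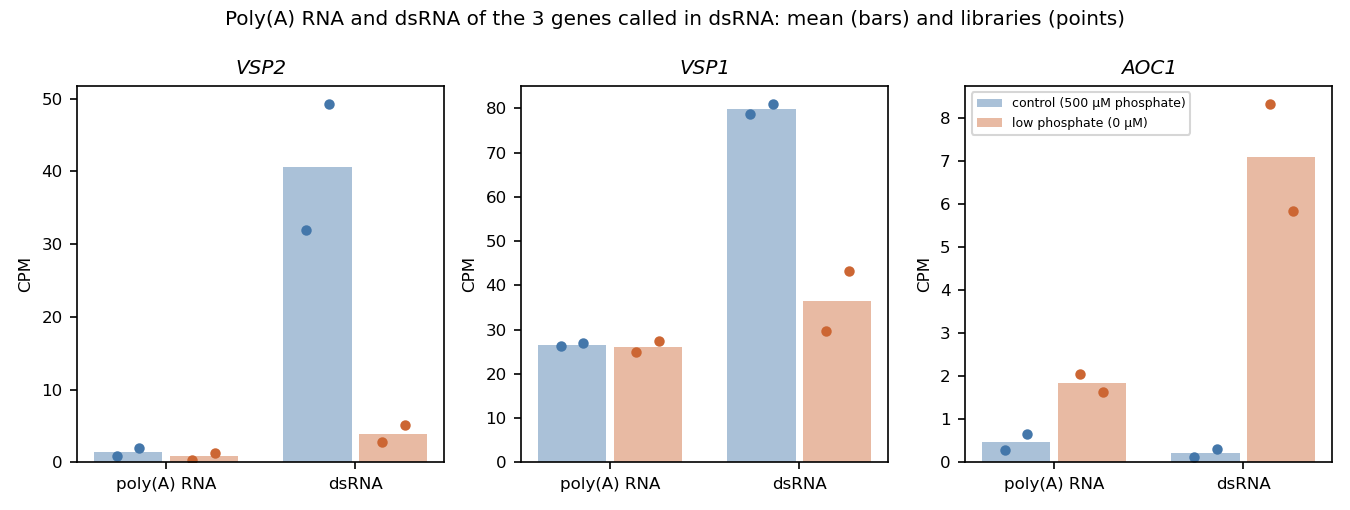
Level (CPM) of VSP2, VSP1 and AOC1 in poly(A) RNA and in dsRNA, with bars for the mean of each condition and points for its 2 libraries. The poly(A) bars of VSP1 are level while its dsRNA falls from about 80 CPM in control to 29.7 and 43.1 CPM, and VSP2 is far higher in control dsRNA than in any other sample.

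Whether dsRNA and poly(A) changes differed was tested as their difference in 1 fit of the 8 libraries, a comparison chosen after seeing the data. It called 0 of 9 jasmonate genes, beside 2.09% of all 20482 genes, while 3 (AOC1, VSP1 and VSP2) had an unadjusted p under 0.05, as did 13.7% of all genes. The difference was -2.57 ± 0.70 on the log2 scale for VSP2 (edgeR adjusted p = 0.0631), -0.95 ± 0.27 for VSP1 (edgeR adjusted p = 0.0725) and 3.51 ± 1.09 for AOC1 (edgeR adjusted p = 0.112). DESeq2 and the fit with no low-count filter each called VSP1 and VSP2 lower. With 1 library left out, the difference lay between -3.21 and -1.15 for VSP2, between -1.22 and -0.78 for VSP1 and between 2.65 and 4.00 for AOC1. The VSP2 difference thus leaned on single libraries. The 2 assays differ in extract, label and kit, which cannot be told apart from the RNA class.

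Control roots held much VSP dsRNA relative to poly(A) RNA. The ratio of mean dsRNA CPM to mean poly(A) CPM was 27.8 for VSP2 and 3.01 for VSP1 in control, against a median of 0.777 over 17279 genes. Those ratios exceeded 98.7% and 95.4% of genes. In low phosphate they were 4.72 and 1.39, with a median of 0.704 over all genes. For AOC1 the ratio was 0.449 in control and 3.83 in low phosphate. AOS was at the other end, with 0.198 in control, above only 1.76% of genes. VSP2 rests on 61 control and 43 low phosphate poly(A) reads, and AOC1 on 20 and 88. The poly(A) counts are labelled as coding sequence and the dsRNA counts only by gene, so the regions counted may differ.

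**Figure D4:**
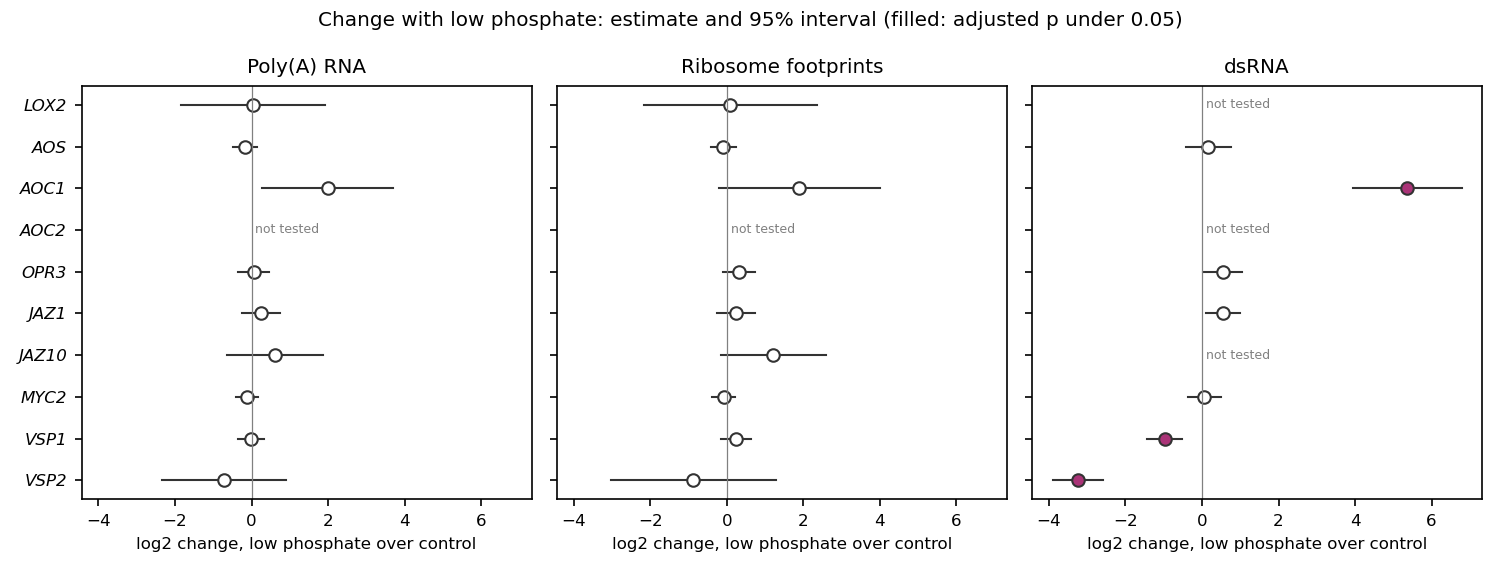
log2 change from control to low phosphate (x axis) for each jasmonate gene in poly(A) RNA, footprints and dsRNA, with 95% intervals from edgeR. Filled points are the 3 dsRNA changes called at an adjusted p of 0.05, AOC1 at 5.36, VSP1 at -0.98 and VSP2 at -3.24.

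Translational efficiency, footprints over coding sequence relative to poly(A) RNA, set 3 of the genes apart from the average gene in both conditions. JAZ1 carried more footprints for its RNA, with a log2 ratio of 0.81 ± 0.22 in control (edgeR adjusted p = 0.0190) and 0.81 ± 0.22 in low phosphate (edgeR adjusted p = 0.0201). VSP1 carried fewer, at -0.84 ± 0.17 in control (edgeR adjusted p = 0.00440) and -0.59 ± 0.16 in low phosphate (edgeR adjusted p = 0.0200). AOS also carried fewer, at -0.54 ± 0.14 (edgeR adjusted p = 0.0156) and -0.46 ± 0.14 (edgeR adjusted p = 0.0322). These are 3 of 9 tested genes in each condition, close to the 34.7% of all genes called in control and the 32.7% in low phosphate. By direction, control roots had 17.1% of all genes higher and 17.6% lower, and low phosphate roots 15.8% and 16.9%. The ratio compares 2 library types and is read against the average gene.

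Each of these calls but 1 depended on a single library. For AOS, leaving out any 1 of 3 libraries in either condition ended it (edgeR adjusted p of 0.0676 to 0.0783 in control and 0.0760 to 0.183 in low phosphate), and in low phosphate so did a fit on those groups alone (0.0592). JAZ1 lost it without the second control footprint library (edgeR adjusted p = 0.116), the first control poly(A) library (0.137), the second low phosphate footprint library (0.120) or the first low phosphate poly(A) library (0.112). VSP1 kept it in control, and in low phosphate lost it without the second footprint library (edgeR adjusted p = 0.109), the first poly(A) library (0.0501) or the second (0.133). MYC2 lay just short at -0.35 ± 0.13 in control (edgeR adjusted p = 0.0638) and -0.30 ± 0.13 in low phosphate (edgeR adjusted p = 0.103). When footprint and poly(A) libraries of the same number were paired, MYC2 was called lower in control (edgeR adjusted p = 0.00944) and low phosphate (0.0246), and JAZ10 higher in low phosphate at 1.25 ± 0.47 (0.0244).

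The change of efficiency with low phosphate was called for 0 of 9 genes and for 0% of all 19866. DESeq2 called 0 as well, and none of the 9 had an unadjusted p under 0.05, compared with 397 of all genes. For MYC2 the change was 0.05 ± 0.18 (95% interval -0.37 to 0.46), for JAZ1 -0.01 ± 0.31 (95% interval -0.70 to 0.69) and for VSP1 0.25 ± 0.23 (95% interval -0.27 to 0.77).

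The untranslated regions (UTRs) carry the deposited RPKM values, reads scaled to region length and library, which were described and not tested. MYC2 (chr1:11798810-11800988, minus strand, TAIR10, outermost UTR ends as for the spans below) had 5′ UTR footprints of 153 and 85.6 RPKM in control and 64.4 and 78.6 RPKM in low phosphate, over 75 bases. Poly(A) RNA there was 0 and 3.03 RPKM in control and 0.756 and 11.0 RPKM in low phosphate. Its 3′ UTR of 232 bases was the reverse, with footprints of 29.2 and 13.8, then 8.63 and 4.81 RPKM, and poly(A) RNA of 114 and 65.3, then 79.2 and 162 RPKM. In every library the 5′ UTR thus had the higher footprint RPKM of these UTRs and the 3′ UTR the higher poly(A) RPKM. Where reads lay within the coding sequence was not examined.

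AOS (chr5:17097595-17099395, minus strand) showed the same arrangement. Footprints on its 36-base 5′ UTR were 26.2 and 78.0 RPKM in control and 45.8 and 44.2 RPKM in low phosphate, where poly(A) RNA was at most 1.95 RPKM. In its 3′ UTR of 208 bases footprints were 3.62 to 7.66 RPKM and poly(A) RNA 61.6 to 135 RPKM. VSP1 (chr5:8507590-8508957, minus strand) had 0 and 5.90 RPKM of 5′ UTR footprints in control and 17.3 and 14.1 RPKM in low phosphate. Regions this short are close to the length of a footprint, so reads over the start codon can enter them.

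JAZ1 (chr1:6622094-6623620, plus strand) was covered in both UTRs. On the 218-base 5′ UTR of transcript 1, footprints were 72.6 and 93.0 RPKM in control and 70.8 and 86.2 RPKM in low phosphate, and poly(A) RNA was 51.0 and 65.3, then 51.2 and 106 RPKM. The 5′ UTR of transcript 2 is longer, with footprints of 114 and 122 RPKM in control and 107 and 150 RPKM in low phosphate. The uORF listed there, of 264 bases, starts at base 6622312, which is the first base after the 5′ UTR of transcript 1, so its reads cannot be told from coding reads of transcript 1. It was the 1 uORF row of 18, listed per transcript for 8 of the genes, that had a score above 0 in all 8 coding libraries. The JAZ10 uORF rows, of 87 bases in each transcript listed, had a footprint score above 0 in both low phosphate libraries and in neither control. These rows may rest on the same few reads. JAZ10 had only 6 and 18 coding footprints in control, against 39 and 42 in low phosphate.

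The OPR3 5′ UTR (gene span chr2:2359114-2362302, minus strand) is listed in pieces. A 12-base piece next to the start codon, shorter than a footprint, held 251 and 184 RPKM of footprints in control and 216 and 186 RPKM in low phosphate. The 176 bases of the outer piece of transcript 1 held 0.669 RPKM at most. LOX2 (chr3:16525410-16529352, plus strand) was listed at 0 in both UTRs in all 8 libraries. AOC1 (chr3:9403883-9405250, plus strand), AOC2 (chr3:9406873-9407955, plus strand), JAZ10 (chr5:4218888-4220883, plus strand) and VSP2 (chr5:8500476-8502224, minus strand) had at most 7.21 RPKM in any UTR and library.

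Small RNA loci were read around the 10 genes, to 2000 bases beyond each end. Loci of 24 nt, the class that guides DNA methylation in plants, lay between the genes of both tandem pairs, over the OPR3 start and beyond the ends of OPR3 and AOS. The table lists 25025 loci with at least 90 reads, of which 69.4% have 24 nt as their main size, and no source used here names the libraries behind its read totals. Between AOC1 and AOC2 a locus of 707 bases (chr3:9405692-9406398) had 4079 reads, 56.8% of them 24 nt long. It begins 441 bases after AOC1 and ends 474 bases before AOC2.

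The OPR3 locus (chr2:2361924-2363136) was the most abundant, with 7835 reads, and covers 379 bases at the 5′ end of the gene. Between VSP2 and VSP1 lay 3 such loci, with 1089 reads (chr5:8502764-8504756, 539 bases upstream of VSP2), 464 reads (chr5:8504952-8506441) and 1537 reads (chr5:8506582-8507120, 469 bases downstream of VSP1). None overlapped VSP1 or VSP2 themselves, so their dsRNA had no listed small RNA locus on it. The most frequent RNA of each of 4 loci is printed 5′ to 3′ with its first base, which guides the choice of Argonaute partner, in capitals.
AOC1 to AOC2 interval, 191 reads: Aacagacuucgaacccaacaccuc
OPR3 5′ end, 590 reads: Aggggacuguaccaucaaaacu
VSP2 upstream, 44 reads: Aaacggauuugaagaagccauuuc
VSP1 downstream, 90 reads: Aacccgucggaaaauacaacaguc
All 4 begin with A. The OPR3 RNA has 22 nt and the others 24 nt.

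The 24 nt loci beyond the gene ends had 257 and 1910 reads downstream of OPR3 and 1066 reads 1774 bases downstream of AOS. Loci within AOS, JAZ1 and MYC2 were of another kind, with no Dicer size called, as was 1 with 1875 reads 1098 bases downstream of JAZ10. MYC2 had 873 reads over 2117 bases (chr1:11798869-11800985), AOS 122 reads and JAZ1 99 and 140 reads in 2 loci. Within the 3 genes, 6.56% to 13.1% of reads were 24 nt long and 35.7% to 51.6% were longer than the sizes listed. The plus strand gave 11.5% of reads at MYC2, a minus-strand gene, and 99% at the first locus of JAZ1, a plus-strand gene. The capital letter below is again the first base.
JAZ1, 14 reads: Auugacagaacuuccuauugc
MYC2, 12 reads: Augacccgauuggaacaccuggauc
LOX2 had no locus within 2000 bases.

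Around the 10 genes, 56 further jasmonate genes in 5 lists were followed as well, to set them beside the pathway. Of the 66 genes in all, 55 were tested in each coding assay, and edgeR called 0 in poly(A) RNA and 0 in footprints, beside the 1.18% and 1.19% of all genes given above. Their median log2 change was 0.00 in poly(A) RNA and 0.08 in footprints, beside 0.00 for all genes in each. At an unadjusted p under 0.05 there were 8 of 55 in poly(A) RNA, beside 8.91% of all genes, and 4 of 55 in footprints, beside 11.5%. NAC055, a NAC transcription factor, was called in poly(A) RNA by DESeq2 (log2 change 0.98, adjusted p = 0.0454), and CYP94B3, which hydroxylates and so inactivates the hormone, was called in footprints by DESeq2 (log2 change 1.09, adjusted p = 0.0161).

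In dsRNA 44 of the 66 were tested, and 7 were higher and 2 lower, the VSPs being the 2, beside 10.2% and 5.57% of all genes. That is not far from the background. The median log2 change was 0.12 beside -0.02 for all genes. LOX4, another 13-lipoxygenase, rose from 4.24 and 1.85 CPM to 19.4 and 10.2 CPM, with a log2 change of 2.36 ± 0.37 (edgeR adjusted p = 7.98e-09). NAC055 rose from 8 and 2 counts to 30 and 21, with 3.17 ± 0.56 (edgeR adjusted p = 4.14e-07). Like AOC1, NAC055 passed the low-count filter in dsRNA only through its low phosphate libraries. CYP94B3 rose from 4.49 and 3.08 CPM to 9.82 and 16.1 CPM, with 1.85 ± 0.38 (edgeR adjusted p = 2.42e-05). Smaller rises were called for OPR2, a relative of OPR3 (0.87 ± 0.23), AT5G05600, which the reference leaves unnamed (0.82 ± 0.25), and KAT2, a thiolase of the final chain shortening (0.61 ± 0.23).

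By list, the synthesis genes gave a median dsRNA change of 0.43 with 4 of 16 called, all higher (LOX4, AOC1, OPR2 and KAT2). Turnover genes had a median of 0.47 with 2 of 6 called higher (CYP94B3 and AT5G05600). Receptor and repressor genes had a median of -0.08 with 0 of 12 called, and transcription factors 0.06 with 1 of 7 (NAC055). These small counts stand beside 10.2% of all genes called higher. Output genes had -0.98, a median over 3 tested genes of which VSP1 and VSP2 were called lower. Poly(A) medians of the same lists lay between -0.07 and 0.11, and footprint medians between -0.06 and 0.25.

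**Figure D5:**
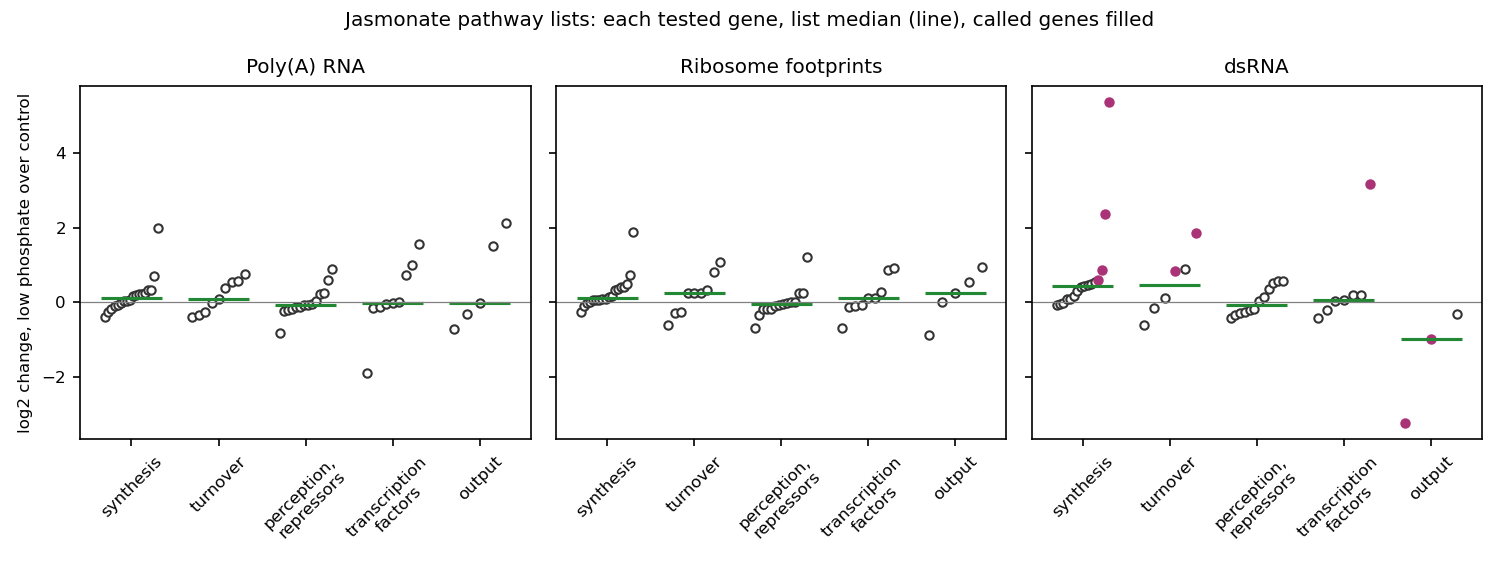
log2 change from control to low phosphate (y axis) of every tested gene in 5 jasmonate lists (x axis), in poly(A) RNA, footprints and dsRNA. Green lines are list medians and filled points are genes called by edgeR at an adjusted p of 0.05, of which there are 0, 0 and 9.

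Several of the 66 stood away from the average gene in translational efficiency. In control 12 were higher and 8 lower of 55, and in low phosphate 11 and 8, which is again near the share of all genes. The receptor and repressor list had 5 higher and 2 lower of 14 tested, beside 17.1% and 17.6% of all genes. The 5 were JAZ genes, out of 11 tested, JAZ1 and 4 more with log2 ratios in control of 1.35 ± 0.23 for JAZ12, 0.86 ± 0.20 for JAZ3, 0.82 ± 0.24 for JAZ2 and 0.69 ± 0.22 for JAZ11, all 4 called in low phosphate too. NINJA, the adaptor that links JAZ proteins to a corepressor, was lower at -1.17 ± 0.13 in control and -1.01 ± 0.13 in low phosphate. The receptor COI1 was low as well, at -0.71 ± 0.13 and -0.67 ± 0.13.

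Among enzymes, KAT2 (0.96 ± 0.13) and AIM1 (0.88 ± 0.14), both of peroxisomal chain shortening, AOC4 (0.67 ± 0.17), JAR1, which makes jasmonoyl-isoleucine (0.62 ± 0.16), LOX6 (0.59 ± 0.15) and OPCL1 (0.55 ± 0.17) were higher in control, and all 6 were in low phosphate. OPR2 was lower (-0.58 ± 0.14 in control and -0.51 ± 0.14 in low phosphate), as were the bHLH factors MYC3 (-0.46 ± 0.15 and -0.55 ± 0.15) and JAM2 (-0.70 ± 0.18 and -0.57 ± 0.18). Called in 1 condition were ILL6, higher in control (0.89 ± 0.29), JR1, lower in control (-0.50 ± 0.15), and JAM1, lower in low phosphate (-1.20 ± 0.34). The difference between conditions was called for none of the 55 genes, and none had an unadjusted p under 0.05.

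Genes of most like pattern were taken as the 3 with the highest Pearson r over the 8 coding libraries, after removing the mean of each assay. For LOX2 they included FAD5, a plastid fatty acid desaturase, at r = 0.986 and CRD1, of chlorophyll synthesis, at 0.979. JAZ1 was closest to NUDT4 at 0.9998 and ALDH3I1 at 0.994, JAZ10 to TWD1 at 0.996, OPR3 to ARAD1 at 0.986 and AOC1 to PLC9 at 0.997. VSP2 had TT4, chalcone synthase, at 0.989 among its 3, VSP1 had SYP52 at 0.972 and AOS had AMP1 at 0.984. For MYC2 the closest was AT1G11960 at 0.991. These are the highest values among 12526 or 12527 genes over only 8 libraries, and genes of a library share its depth and harvest.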

How the data were processed

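Per the submitters' processing notes, CASAVA 1.8, TopHat 1.3.1 and Bowtie2 2.2.9 were used with TAIR10, and the role of each is not stated there. No source used here names the read counter or its strand handling. The deposited coding and dsRNA tables hold raw read counts per gene. The deposited UTR tables hold RPKM as the authors titled them, and the deposited uORF values are whole numbers treated as a score, read only as 0 or above 0. In the deposited small RNA table, per the file headers, loci have read counts and a top-strand fraction. No separate small RNA sample of low phosphate roots was analysed here.

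Counts were fitted with edgeR 4.0.16 in R 4.3.3 (TMM scaling, filterByExpr, quasi-likelihood F-test, two-sided) over all genes, the 8 coding libraries together and the 4 dsRNA libraries alone. P-values were Benjamini-Hochberg adjusted over all tested genes with a threshold of 0.05. The total degrees of freedom were 9.55 in the coding fit and 35140 in the dsRNA fit, where the spread was pooled over genes. An SE is the log2 change divided by the root of F. DESeq2 1.42.0, other scaling, no filter, blocks and left-out libraries were alternatives, and the tests were run on simulated data.  Counting intervals are exact binomial ones, cover counting error only, and 3 counts equal 0.112 to 1.10 CPM.

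Members, lists and tests were chosen with earlier results of these data known. The 10 genes were always named, other jasmonate genes when called in any comparison. NAC055 and CYP94B3 under DESeq2, the dsRNA against poly(A) test and the window of 2000 bases for small RNAs were chosen after values were seen. Every list had a called gene, so none was named for its level. Names came from RefSeq (TAIR10.1, names only), in which the names of all 101 listed genes are found, unnamed loci by identifier. Labels number no replicates, so columns' numbers were used.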

Additional observations from a re-analysis of the deposited data

Results flagged for a closer look

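NAC055, which encodes a NAC transcription factor and is not one of the 10 genes, differed between dsRNA and poly(A) RNA in its change with low phosphate. The difference was 2.22 ± 0.53 on the log2 scale (edgeR adjusted p = 0.0293, both low phosphate libraries above both controls in each assay). Its dsRNA went from 8 and 2 reads to 30 and 21, and its poly(A) RNA 8.82 and 6.84 CPM against 15.8 and 15.5 CPM.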

How the results depend on the processing

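No result changed direction with its call under any alternative. Of 616 values of single genes under alternatives, 571 stayed on their side of the threshold and kept their sign or, if uncalled, changed sign within their SE. The size of a value that kept its sign was not judged, and AOC1 in footprints reached 8.12 with 1 library left out. A call was lost by 16 values and gained by 17, and 12 uncalled values changed sign by at least their SE. In all, 53 uncalled values changed sign. With DESeq2 or with no low-count filter, 1 pathway gene was called in poly(A) RNA (NAC055) and 1 in footprints (CYP94B3) in place of 0. Leaving out 1 library gave 0 called members in poly(A) RNA, footprints and the change of efficiency, 1 to 2 for efficiency in control, 0 to 2 in low phosphate, 2 to 5 in dsRNA and 0 to 2 for dsRNA against poly(A) RNA. DESeq2, no filter and the replicate block each gave 2 for the last in place of 0. With footprint and poly(A) libraries of a number as pairs, 5 members were called for efficiency in low phosphate in place of 3, MYC2 and JAZ10 being added. The cause of these shifts was not tested. The replicate number as a block changed no other count of members by over 1.5 times. Deviations of same-numbered control and low phosphate libraries correlated at 0.171 in poly(A) RNA, -0.032 in footprints and -0.004 in dsRNA, so with 2 pairs these share only a number. Footprint and poly(A) libraries of a number correlated at 0.354 (control) and 0.537 (low phosphate), a hint from the data and not the labels that they are paired. A library left alone in its condition was assumed to vary like the others. Low counts limit LOX2, AOC1, AOC2, JAZ10 and VSP2 in the coding assays.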
